A study of Homo sapiens with 12 samples.

Results

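Aurora A and Aurora B are the mitotic kinases that build the spindle and correct faulty attachments of chromosomes to it, and the shugoshins guard the centromere until sister chromatids separate. The 9 genes described here are AURKA with its cofactors TPX2 and BORA, the 4 subunits of the chromosomal passenger complex (AURKB, INCENP, BIRC5 and CDCA8), and the shugoshins SGO1 and SGO2. They were taken by gene symbol from the deposited expression table, which held all 9 of them among 14828 genes. Their transcripts were measured by RNA sequencing in 22Rv1, an established human prostate carcinoma cell line, carrying 1 of 3 short hairpin RNAs (shRNAs). The control group, shNT, expressed a nontargeting shRNA, and the groups shCENPA1 and shCENPA2 expressed independent shRNAs against CENPA, the histone H3 variant that marks centromeres.

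By the methods of the study, all 3 shRNAs sat in the same doxycycline-inducible Tet-On lentiviral vector in stably selected, doxycycline-treated cells, so that the controls shared the vector and the drug. Each group held 2 libraries, each sequenced in 2 lanes that were averaged. The sample titles number each lane as a replicate of its own (the run number below). Nothing in the labels says that the libraries came from separate cultures. The p-values below therefore measure the spread between these libraries, which may be technical. A single parental line was used, and no uninduced cells were analysed here. Each library held between 79172294 and 133074655 reads on genes. Luminal prostate markers were all present, with a summed level of 645 to 694 RPKM (reads scaled to transcript length and library size) in shNT libraries and of 696 to 732 RPKM in knockdown libraries. Of 10 stromal, endothelial and leukocyte markers, PECAM1, VWF, PTPRC, CD3E, CD68, LYZ, COL1A2 and PDGFRB were not in the table, and COL1A1 and DCN summed to at most 1.63 RPKM in any library.

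Aurora A is activated and held on spindle microtubules by TPX2, and together with BORA it switches on the kinase PLK1 at mitotic entry. Aurora B works within the chromosomal passenger complex, in which INCENP is the scaffold that activates the kinase, and survivin (BIRC5) and borealin (CDCA8) bring the complex to the inner centromere. SGO1 and SGO2 recruit the phosphatase PP2A, which shields centromeric cohesin, and they also help to place the passenger complex. Most of these genes are transcribed mainly in G2 and mitosis, and the promoters of such genes commonly carry the cell cycle genes homology region (CHR) and CCAAT boxes.

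In the RefSeq promoter set (GRCh38.p14, 250 bases before to 50 bases after the transcription start), 6 of the 9 genes were found, and AURKA, BIRC5 and TPX2 were not matched. The CHR was searched as the letters TTTGAA or TTCGAA and the CCAAT box as CCAAT, on both strands, so that ATTGG is a CCAAT box on the opposite strand. Stretches around the matches are shown because they are letters that these promoters share. They leave out the CCAAT boxes of BORA and the one at the other RefSeq start of SGO2. Matches stand in capitals, and each line runs 5′ to 3′ on the gene's own strand.
CDCA8 (chr1:37692391-37692510, plus strand): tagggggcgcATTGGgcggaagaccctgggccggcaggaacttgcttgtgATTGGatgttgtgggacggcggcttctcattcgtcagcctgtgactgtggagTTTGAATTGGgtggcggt
INCENP (chr11:62123894-62124010, plus strand): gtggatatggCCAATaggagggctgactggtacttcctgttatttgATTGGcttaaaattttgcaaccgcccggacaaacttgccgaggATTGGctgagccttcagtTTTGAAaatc
BORA (chr13:72727734-72727763, plus strand): aggctgcgttgaTTTGAAtttggagccacg
BORA (chr13:72727787-72727816, plus strand): gaggagttgccaTTCGAAtttcctacgcgg
SGO1 (chr3:20186204-20186244, minus strand): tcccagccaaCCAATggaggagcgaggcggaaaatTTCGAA
AURKB (chr17:8210366-8210388, minus strand): cagcgcccagATTGGggctagtg
SGO2 (chr2:200526132-200526154, plus strand): gcaggacccgATTGGctgatggg

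CHR letters lay in 4 of the 6 promoters, those of CDCA8, INCENP, BORA and SGO1, against 15.2% of the promoters of 10148 genes tested. BORA carried both forms, and the TTCGAA of SGO1 ran across the transcription start. A CCAAT box was found in all 6 promoters, against 43.3% of all promoters, and 3 boxes each stood in CDCA8 and INCENP. In CDCA8 the TTTGAA and the nearest ATTGG share 1 base, so these matches are not separate letters. The E2F letters TTTCCCGC, TTTCGCGC, TTTGCCGC and TTTGGCGC were found in 0 of the 6 promoters and in 6.55% of all promoters. By GENCODE 44, the AURKB stretch lay in an intron of an annotated transcript, the second BORA stretch lay wholly in an annotated exon, and the others held between 3 and 30 exonic bases. The matches describe letters only, since no binding was measured in these cells.

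CENPA itself checks the labels. Its log2 RPKM was 2.46 and 2.18 in the shNT libraries, 0.50 and 0.58 in the shCENPA1 libraries and -0.47 and -0.41 in the shCENPA2 libraries, so that the 3 groups did not overlap. CENPA was 70.9% lower with shCENPA1 and 85.3% lower with shCENPA2 than with shNT (limma, adjusted p = 0.000287 and 1.13e-05), and its level differed between the CENPA shRNAs too (log2 fold change -0.98, adjusted p = 0.0209). That adjusted p was above 0.05 without shCENPA1 library 1 (0.0908) or 2 (0.212), without shCENPA2 library 2 (0.0571) with 1 added to RPKM (0.0606) and with limma voom (0.0778).

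In shNT cells the 9 genes ran from abundant to scarce. On the log2 RPKM scale, which allows for transcript length, TPX2 was the highest at 5.42 ± 0.06 (SD, n = 2), above 93.7% of the genes tested. BIRC5 (4.39 ± 0.10), CDCA8 (4.19 ± 0.00), AURKA (4.01 ± 0.06), AURKB (3.58 ± 0.10) and INCENP (3.40 ± 0.01) followed. The shugoshins stood far lower, at 1.99 ± 0.22 for SGO2 and 1.73 ± 0.06 for SGO1, and the gap between them was close to the spread of SGO2. BORA was the lowest on this scale at 0.55 ± 0.10, above 22.8% of genes. Its RPKM divides by a length of 9719 bp, against 4199 bp for SGO1 and 6402 bp for SGO2. In reads BORA (1465 and 1258 in shNT) was close to SGO1 (1464 and 1215), so its place depends on the length used. Every gene rested on at least 286 reads in each library.

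With shCENPA2 the order differed. AURKA (2.99 ± 0.12), BIRC5 (2.73 ± 0.10), INCENP (2.72 ± 0.10) and CDCA8 (2.65 ± 0.19) then stood close together on the log2 RPKM scale, and the libraries of the last 3 overlapped. On the same scale INCENP lay below AURKB in both shNT libraries and above it in each of the 4 knockdown libraries.

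**Figure D1:**
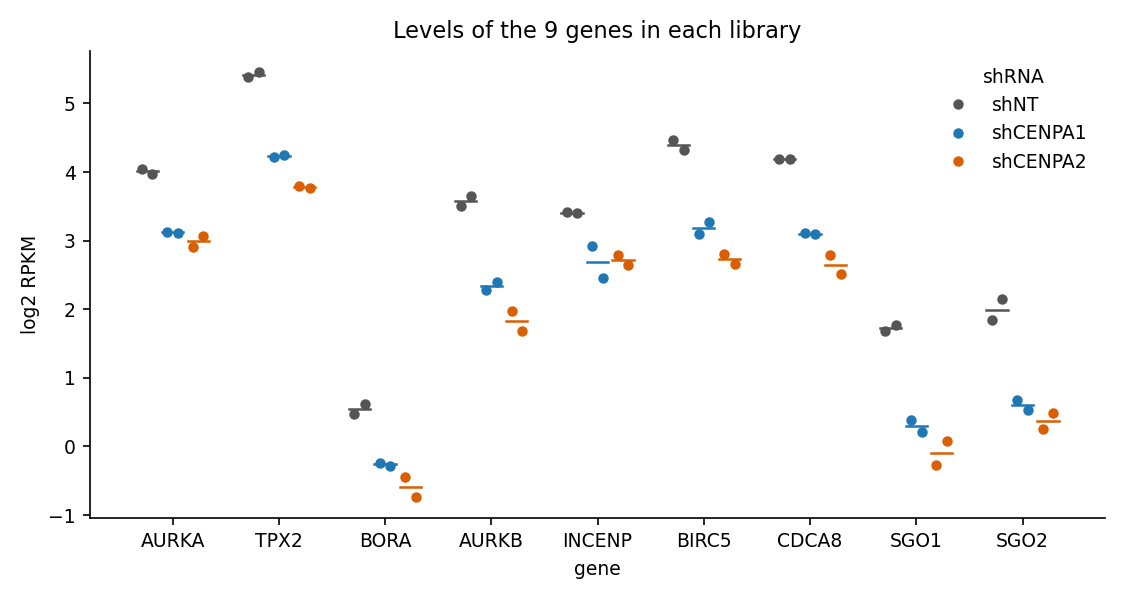
Level of each of the 9 genes (log2 RPKM, vertical axis) in the 6 libraries, with 1 point per library and a bar at the mean of each shRNA. For every gene the 4 CENPA-knockdown libraries lie below both shNT libraries. On this scale TPX2 is the highest and BORA the lowest gene in all groups.

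All 9 transcripts were lower after CENPA knockdown. In each gene the 4 knockdown libraries lay below both shNT libraries, a separation that 20.5% of the 14624 genes tested also showed. A gene was called when its adjusted p was under 0.05 and its log2 fold change beyond 1. By this rule 6 of the 9 genes fell with shCENPA1, where 2.65% of all genes were called in either direction and 1.83% were called lower. With shCENPA2 8 of the 9 genes fell, where 6.13% of all genes were called and 4.45% were called lower. By adjusted p alone all 9 were lower with each shRNA, against 4.45% and 10.5% of all genes. The median log2 fold change of the 9 genes was -1.18 with shCENPA1 and -1.63 with shCENPA2, beside 0.00297 and 0.0122 over all genes. The 2 shNT libraries serve as controls in each comparison, so the results with shCENPA1 and shCENPA2 are not independent of each other.

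Genes that serve proliferation in general moved with them. MKI67, which encodes the proliferation antigen Ki-67, was at 4.10 ± 0.00 log2 RPKM in shNT, 2.70 ± 0.27 in shCENPA1 and 2.44 ± 0.06 in shCENPA2 libraries (SD, n = 2). In counts of genes, fell means called lower by the rule above. Of 30 other G2/M genes 29 fell with shCENPA1 and 30 with shCENPA2, and of 25 G1/S genes 10 and 17 fell. By adjusted p alone all 30 G2/M genes were lower with each shRNA, and 22 and 23 of the G1/S genes. Of all genes, 4.45% and 10.5% were lower by adjusted p alone. Because whole cultures were sequenced, fewer cells in G2 and mitosis and less of each transcript per such cell cannot be told apart here. The reference genes GAPDH (log2 fold change 0.22 and 0.08) and ACTB (-0.01 and -0.09) were not called with either shRNA.

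TPX2 is the activator that locks Aurora A in its active form on the spindle. On the log2 RPKM scale it stood at 5.38 and 5.46 in shNT, 4.22 and 4.25 in shCENPA1 and 3.79 and 3.77 in shCENPA2 libraries. The groups were widely separated, and the libraries within each group nearly coincided. With shCENPA1 TPX2 fell by 1.18 log2 units (SE 0.08, adjusted p = 9.98e-05, limma) and with shCENPA2 it fell by 1.64 (SE 0.08, adjusted p = 6.3e-06), losses of 56.0% and 67.9%. As fitted here, it was also the 1 gene of the 9 whose level differed between the CENPA shRNAs by adjusted p (log2 fold change -0.46, 95% confidence interval -0.65 to -0.27, adjusted p = 0.0348), at a size under the fold threshold, as 1.03% of all genes were lower by adjusted p alone. That adjusted p rose above 0.05 when any 1 of the 6 libraries was left out, and to 0.214 at most. It was not alone under every alternative: with lanes at an estimated correlation AURKB (0.0486), BIRC5 (0.0211) and CDCA8 (0.0119) passed too, and without shCENPA2 library 1 AURKB (0.0459) and CDCA8 (0.0337) passed while TPX2 (0.0564) did not.

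AURKA encodes the kinase of the spindle poles. The libraries read 4.05 and 3.97 log2 RPKM in shNT, 3.13 and 3.11 in shCENPA1 and 2.91 and 3.07 in shCENPA2 libraries. The knockdown libraries lay well below the controls, while those of the CENPA shRNAs nearly met. With shCENPA2 AURKA fell by 1.02 (SE 0.10, adjusted p = 0.000149), and with shCENPA1 its log2 fold change was -0.89 (adjusted p = 0.00081), short of the fold threshold. These are decreases of 50.6% and 46.0%. The call with shCENPA2 rests on the fold threshold, since the log2 fold change was -0.98 without shNT library 1 and -0.93 without shCENPA2 library 1.

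BORA, the cofactor through which Aurora A reaches PLK1, had the lowest log2 RPKM of the set, at the length of 9719 bp used. In log2 RPKM it was 0.48 and 0.62 in shNT, -0.24 and -0.28 in shCENPA1 and -0.45 and -0.73 in shCENPA2 libraries, from 1465 and 1258 reads in shNT and 589 to 826 reads in knockdown libraries. The groups did not overlap. BORA fell by 1.14 with shCENPA2 (SE 0.19, adjusted p = 0.00319), a loss of 54.6%, and its log2 fold change with shCENPA1 was -0.81 (adjusted p = 0.0354). Without shCENPA2 library 2 the log2 fold change was -0.998, just inside the threshold. Of the exon bases annotated to BORA, 37.0% (1180 bp) overlap exons of DIS3 on the opposite strand. The annotated exon length is therefore shorter than the 9719 bp used. DIS3, with 7968 to 14917 reads, had log2 fold changes of -0.10 and -0.07. Whether the counting used strand is not given in the sources used here, so reads from the overlap cannot be assigned with certainty.

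AURKB encodes the kinase of the passenger complex. It measured 3.51 and 3.66 log2 RPKM in shNT, 2.29 and 2.40 in shCENPA1 and 1.97 and 1.69 in shCENPA2 libraries. The 3 groups did not overlap, with shCENPA2 lowest. AURKB fell by 1.24 with shCENPA1 (SE 0.13, adjusted p = 0.000545) and by 1.75 with shCENPA2 (SE 0.13, adjusted p = 3.13e-05). These were losses of 57.7% and 70.3%.

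BIRC5 encodes survivin, a member of the inhibitor of apoptosis family that serves here in mitosis. The level of BIRC5 was 4.46 and 4.32 log2 RPKM in shNT, 3.09 and 3.27 in shCENPA1 and 2.80 and 2.66 in shCENPA2 libraries, again in 3 separate groups. It fell by 1.21 with shCENPA1 (SE 0.11, adjusted p = 0.000271) and by 1.66 with shCENPA2 (SE 0.11, adjusted p = 1.76e-05), losses of 56.9% and 68.4%. None of the 4 other inhibitor of apoptosis genes tested (BIRC2, BIRC3, XIAP and BIRC6) was called with either shRNA, with log2 fold changes between -0.60 and 0.15.

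CDCA8 encodes borealin. It was at 4.19 log2 RPKM in both shNT libraries, 3.11 and 3.09 in shCENPA1 and 2.79 and 2.51 in shCENPA2 libraries. The shNT and shCENPA1 libraries were tightly paired, and the shCENPA2 libraries were further apart. The gene fell by 1.09 with shCENPA1 (SE 0.11, adjusted p = 0.000505) and by 1.55 with shCENPA2 (SE 0.11, adjusted p = 2.81e-05), losses of 53.1% and 65.7%.

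INCENP, the scaffold, had the log2 fold change nearest to 0 among the passenger complex genes with each CENPA shRNA. The INCENP level was 3.41 and 3.40 log2 RPKM in shNT, 2.92 and 2.46 in shCENPA1 and 2.80 and 2.65 in shCENPA2 libraries. Both shCENPA1 libraries were below the controls, but they bracketed the shCENPA2 libraries. Its log2 fold changes, -0.72 with shCENPA1 (SE 0.15, adjusted p = 0.0194) and -0.68 with shCENPA2 (SE 0.15, adjusted p = 0.0116), passed the adjusted p but not the fold threshold. With shCENPA1 its 95% confidence interval (-1.05 to -0.38) overlapped those of AURKB (-1.53 to -0.95), BIRC5 (-1.46 to -0.97) and CDCA8 (-1.34 to -0.84). With shCENPA2 INCENP (-1.01 to -0.35) did not overlap these partners. Its value with shCENPA1 depended on which library was kept, at -0.49 (adjusted p = 0.0967) without shCENPA1 library 2 and -0.95 without shCENPA1 library 1.

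**Figure D2:**
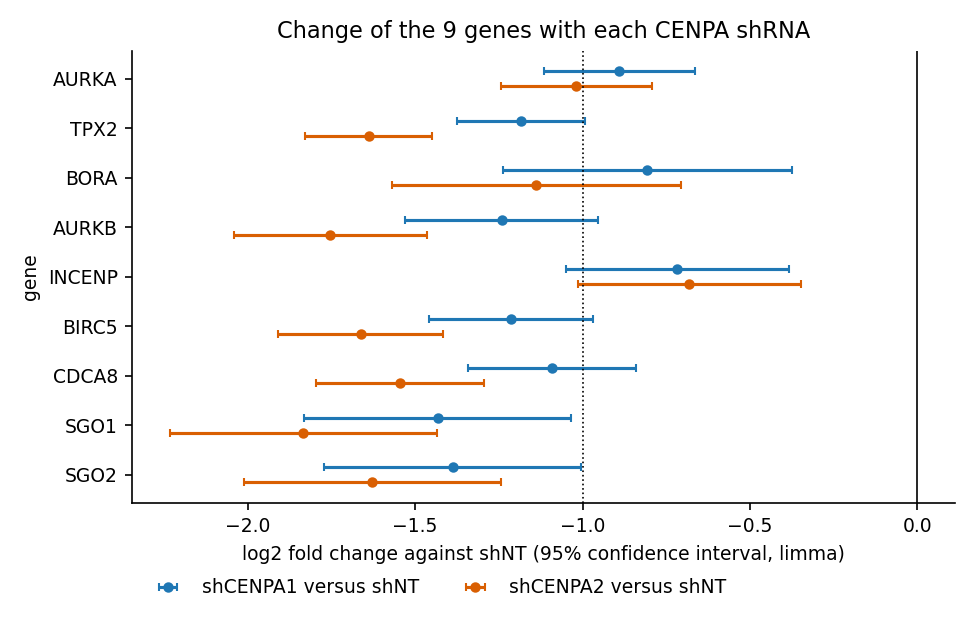
Log2 fold change of each of the 9 genes with shCENPA1 and shCENPA2 against shNT (horizontal axis), with 95% confidence intervals from limma, and a dotted line at the fold threshold of -1. INCENP lies nearest to 0 with both shRNAs (-0.72 and -0.68), and SGO1 lies farthest (-1.43 and -1.83).

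SGO1 protects centromeric cohesin until anaphase. Its log2 RPKM was 1.69 and 1.78 in shNT, 0.39 and 0.21 in shCENPA1 and -0.28 and 0.07 in shCENPA2 libraries, with a gap of more than 1 between the controls and every knockdown library. It fell by 1.43 with shCENPA1 (SE 0.18, adjusted p = 0.00132) and by 1.83 with shCENPA2 (SE 0.18, adjusted p = 0.000135), losses of 63.0% and 71.9%. An antisense gene, SGO1-AS1, overlaps 15.8% of its exon bases and was not in the table.

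SGO2, the shugoshin best known for guarding cohesin in meiosis, is also expressed in dividing somatic cells. Its log2 RPKM was 1.84 and 2.15 in shNT, 0.68 and 0.53 in shCENPA1 and 0.25 and 0.48 in shCENPA2 libraries. Knockdown libraries of both kinds were far below the controls and close to each other. SGO2 fell by 1.39 with shCENPA1 (SE 0.17, adjusted p = 0.00126) and by 1.63 with shCENPA2 (SE 0.17, adjusted p = 0.000221), losses of 61.8% and 67.6%.

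Between the CENPA shRNAs themselves, none of the 9 genes was called, where 0.732% of all genes were called. The median log2 fold change of shCENPA2 against shCENPA1 was -0.40 for the 9 genes and -0.0026 over all genes. It was -0.34 for the 30 other G2/M genes and -0.33 for the 25 G1/S genes, so the 9 genes shared this shift with them. Under limma 5 of the 9 passed an unadjusted p of 0.05, against 13.3% of all genes, and limma voom on whole reads called 0 as well. The mean was lower with shCENPA2 than with shCENPA1 in 8 of the 9 genes, beside 50.6% of all genes. All 9 were measured in the same libraries, so they are not separate observations. CENPA was lower with shCENPA2 too, and its part in these differences was not tested. Log2 fold changes of shCENPA2 against shCENPA1 were -0.51 for AURKB (95% confidence interval -0.80 to -0.22, adjusted p = 0.106), -0.45 for BIRC5 (-0.69 to -0.20, adjusted p = 0.0964) and -0.45 for CDCA8 (-0.70 to -0.20, adjusted p = 0.1004). These 3 genes thus kept confidence intervals below 0 without passing the adjustment over all genes. The difference was -0.40 for SGO1 (-0.80 to -0.00), -0.33 for BORA (-0.76 to 0.10), -0.24 for SGO2 (-0.62 to 0.14), -0.13 for AURKA (-0.35 to 0.10) and 0.04 for INCENP (-0.30 to 0.37), and the intervals of the last 4 spanned 0. These differences depended on single shCENPA2 libraries, since without library 1 they were -0.23 for SGO1, -0.12 for SGO2 and -0.04 for AURKA, and without library 2 they were -0.19 for BORA and -0.21 for AURKA. In 8 of the 9 genes, INCENP being the exception, both shCENPA2 libraries lay below both shCENPA1 libraries, as they did in 20.2% of all genes.

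Ratios within a library show whether partners kept their balance, since depth and scaling cancel in them. The log2 ratio of AURKB to INCENP was 0.10 and 0.26 in shNT, -0.63 and -0.06 in shCENPA1 and -0.83 and -0.96 in shCENPA2 libraries. By RPKM, AURKB thus exceeded its scaffold in both controls and was below it in every knockdown library, a mean difference of -0.80. The sign within a library depends on the lengths used, 2241 bp for AURKB and 4473 bp for INCENP. The difference between groups does not. The ratio of BIRC5 to INCENP differed by -0.74 and that of CDCA8 to INCENP by -0.62, again with no overlap between the control and knockdown libraries. However, shCENPA1 library 2 lay close to the controls, at 0.81 against 1.05 and 0.93 for BIRC5 and 0.63 against 0.78 and 0.80 for CDCA8. In shCENPA1 library 1 these ratios were 0.18 and 0.20. All 3 ratios share INCENP, whose shCENPA1 libraries were apart (2.92 and 2.46 log2 RPKM), so they are not independent. With 4 libraries against 2, an exact two-sided permutation test gave p = 0.133 for each of these ratios, the smallest value it can give (adjusted p = 0.187 over 7 ratios). The test pooled the libraries of shCENPA1 and shCENPA2 as 1 knockdown group, although their ratios differed.

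The log2 ratio of TPX2 to AURKA was 1.33 and 1.49 in shNT, 1.09 and 1.14 in shCENPA1 and 0.88 and 0.69 in shCENPA2 libraries, a mean difference of -0.46, and that of AURKA to AURKB averaged 0.43 in shNT and 0.97 in knockdown libraries (exact permutation p = 0.133 for both, adjusted p = 0.187). The groups did not overlap in either ratio. In contrast, the ratio of BORA to AURKA averaged -3.46 in shNT and -3.48 in knockdown libraries (exact permutation p = 0.933), and that of SGO1 to SGO2 averaged -0.26 and -0.39 (exact permutation p = 0.4), with control and knockdown libraries overlapping in both.

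**Figure D3:**
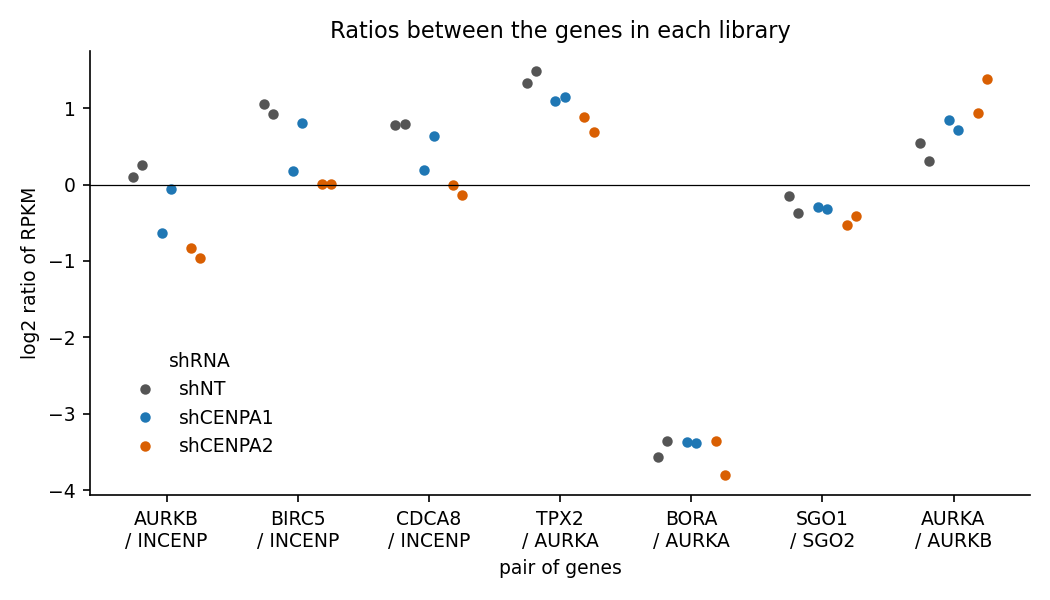
Log2 ratio of RPKM between 7 pairs of the genes (vertical axis), with 1 point per library. The ratios of AURKB, BIRC5 and CDCA8 to INCENP and of TPX2 to AURKA are lower in every knockdown library than in both shNT libraries, AURKA to AURKB is higher, and BORA to AURKA and SGO1 to SGO2 overlap.

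Among 23 other partners and controllers of Aurora A, 4 fell with shCENPA1 and 6 with shCENPA2, and the medians were -0.17 and -0.21. The genes named here are the 3 of each list with the largest fall common to both shRNAs. HMMR, which binds TPX2 at spindle poles, fell by 1.45 and 1.80 on the log2 scale, KIF11, the kinesin that pushes spindle poles apart, fell by 1.30 and 1.72, and PLK1 fell by 1.15 and 1.41. These genes also belong to the G2/M list. The remaining genes, such as the PP6 phosphatase subunits that oppose Aurora A, included log2 fold changes of 0.03 and 0.02 for PPP6C, which was chosen after its values were seen.

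Among 27 genes of Aurora B recruitment, substrates and opposing phosphatases, 11 fell with each shRNA, and the medians were -0.30 and -0.42. The kinetochore scaffold KNL1 fell by 1.40 and 1.66, the checkpoint kinase TTK fell by 1.34 and 1.58, and BUB1, which marks histone H2A for shugoshin binding, fell by 1.31 and 1.60. GSG2, the older symbol of the haspin kinase whose histone H3 mark docks survivin, fell by 1.07 and 1.74 and was chosen after its values were seen. Of the PP1 catalytic subunits, PPP1CA (0.15 and 0.14), PPP1CB (-0.05 and -0.22) and PPP1CC (-0.15 and -0.27) were not called, and they were chosen after their values were seen.

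Among 26 genes of shugoshin partners and centromeric cohesion, 4 fell with each shRNA, and the medians were -0.18 and -0.13. ESCO2, which acetylates cohesin in S phase, fell by 1.32 and 1.56, securin (PTTG1) fell by 1.27 and 1.60, and separase (ESPL1) fell by 1.17 and 1.36. The remaining called gene, CDCA5 (sororin), fell by 1.07 and 1.51 and was chosen after its values were seen. None of the 9 PP2A subunits in the list was called, and none of the core cohesin genes RAD21, SMC1A, SMC3, STAG1 and STAG2 was called either, with log2 fold changes between -0.50 and -0.14. These cohesin genes were also chosen after their values were seen.

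The 30 other G2/M genes had medians of -1.28 and -1.59, beside -1.18 and -1.63 for the 9 genes. DLGAP5 fell by 1.49 and 1.64, HMMR by 1.45 and 1.80 and MKI67 by 1.40 and 1.66. The 25 G1/S genes had medians of -0.93 and -1.25, led by RRM2 (falls of 1.25 and 1.71), CDC6 (1.17 and 1.62) and GINS2 (1.17 and 1.51), which serve nucleotide supply and origin licensing and firing. No gene of these lists was called higher. Of 12 reference genes 0 were called with either shRNA by limma, and the medians were 0.02 and -0.06. By adjusted p alone 1 reference gene was lower with shCENPA1, and with shCENPA2 2 were lower and 1 was higher.

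**Figure D4:**
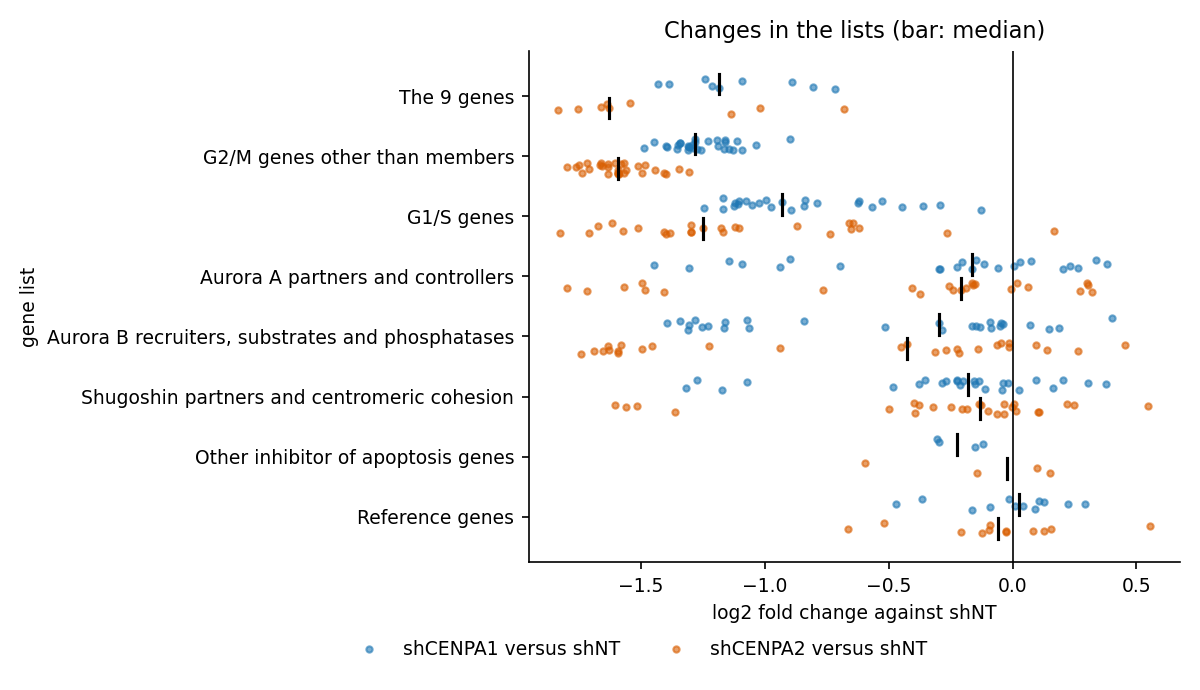
Log2 fold change against shNT (horizontal axis) of every tested gene in the 9-gene set and in 7 lists, with 1 point per gene for each CENPA shRNA and a bar at the list's median. The 9 genes and the other G2/M genes lie mostly below -1 (medians -1.18 and -1.28 with shCENPA1), while the lists of partners have medians between -0.42 and -0.13 and a tail of falling genes.

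The genes most alike to each member were found by the Euclidean distance of their centred log2 RPKM over the 6 libraries, a description in which all genes share the same libraries. TPX2 lay nearest to KIF20A, the kinesin that moves the passenger complex to the midzone (distance 0.066), then to CDK1 and CDC6. For AURKB they were SKA3, MELK and FAM64A, for CDCA8 FAM64A, FOXM1 and KIFC1, and for BIRC5 CKS2, CDCA3 and UBE2C. SGO1 was nearest to NCAPG, DIXDC1 and TMPRSS4, and SGO2 to NEIL3, KNL1 and MCM10. The nearest genes were MT2A, ZWILCH and SLF1 for AURKA, CENPL and ADAMTS3 for INCENP, and LPL, SPATA13 and MMD for BORA.

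Several of the 9 genes share a start region with a neighbour. In GENCODE 44 on GRCh38, AURKA (20:56369389-56392337, minus strand) starts 34 bp from CSTF1 on the opposite strand, and CSTF1 had log2 fold changes of -0.08 (adjusted p = 0.643) and -0.17 (adjusted p = 0.242). CDCA8 (1:37692481-37709719) starts 232 bp from C1orf109, at -0.10 (adjusted p = 0.605) and -0.25 (adjusted p = 0.124). BORA (13:72727749-72756198) starts 120 bp from MZT1, at -0.29 (adjusted p = 0.321) and -0.67 (adjusted p = 0.0161). None of these 3 neighbours was called, although their difference from the member was not tested. INCENP starts 231 bp and TPX2 158 bp from unnamed long noncoding RNA genes on the opposite strand, which were not tested. The other positions are 17:8204733-8210600 (AURKB), 17:78214186-78225636 (BIRC5), 11:62123998-62153169 (INCENP), 20:31739271-31801805 (TPX2), 3:20160593-20186206 (SGO1) and 2:200510008-200584096 (SGO2).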

How the data were processed

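RNA of 22Rv1 cells was converted to stranded mRNA libraries by the authors. Per the labels, the authors used Trim Galore, STAR, HTSeq and edgeR on hg38, and the versions are not given in the sources used here. The deposited values are log2 RPKM per gene and lane, with a small prior added before the logarithm. Groups were taken from the sample titles. The 2 lanes of each library agreed nearly within sampling noise (chi-square of 1.24 to 1.31 per gene, against 26.5 to 80.1 between libraries) and were averaged, which left 6 libraries.

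Testing was limited to the 14624 genes whose log2 RPKM averaged -3 or more, with limma 3.58.1 in R 4.3.3, with a trended prior variance, all 3 groups in the fit and Benjamini-Hochberg adjustment over all genes. Calls needed an adjusted p under 0.05 and a log2 fold change beyond 1. Whole reads were recovered from the steps of the deposited values for 14828 of 14828 genes (largest distance from a whole read 0.0008) and gave the depths and, through limma voom, an alternative. Percent changes were taken from the mean log2 fold changes. The fits were tested on simulated data.

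The members and gene lists were chosen with earlier results of these data known. Named genes were the members, CENPA, MKI67, GAPDH and ACTB, in each list the 3 genes with the largest smaller fold change called with both shRNAs and any gene called higher, and the 3 genes nearest to each member, of which 1 is not reported here. Genes named outside this rule are marked where they stand. DCN, a marker of stromal cells with 119 to 647 reads, was the only list gene called higher (1.93 and 1.48). Of the luminal prostate markers 0 were called with shCENPA1 by limma, 1 of them lower by adjusted p alone, and 2 fell with shCENPA2, where 5 were lower and 1 was higher by adjusted p alone. Positions come from GENCODE 44 and promoters from RefSeq. The alternatives tried were other ways to use the lanes, filters, added constants, scalings, blocks and the omission of each library.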

Additional observations from a re-analysis of the deposited data

Results flagged for a closer look

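In the fit reported, TPX2 was the 1 gene of the 9 whose change differed between the CENPA shRNAs by adjusted p. Its log2 fold change for shCENPA2 against shCENPA1 was -0.46 (adjusted p = 0.0348, limma), and all shCENPA2 libraries were below all shCENPA1 libraries. The CENPA level itself differed between these groups by -0.98, and its part in the result was not tested. The lowest adjusted p over the alternatives, 1.96e-06, came with lanes as replicates. That setting and the block of run number count the 2 lanes of a library as separate samples, so they understate the spread. The adjusted p was above 0.05 whenever a library was left out. It was also above 0.05 with a replicate block of library number (0.0692), with only the groups compared in the fit (0.0840) and without a trend in the variance (0.126). AURKB (0.0486), BIRC5 (0.0211) and CDCA8 (0.0119) passed as well with lanes at an estimated correlation, and these 3 and SGO1 passed with lanes as replicates and with a block of run number, as did BORA with lanes as replicates. Without shCENPA2 library 1, AURKB (0.0459) and CDCA8 (0.0337) passed and TPX2 (0.0564) did not.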

How the results depend on the processing

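All 9 genes kept a lower level with each CENPA shRNA under every alternative run. The number called was 4 to 6 with shCENPA1 and 6 to 8 with shCENPA2, apart from 9 and 9 by adjusted p alone. With 1 added to RPKM the calls of AURKA (-0.93) and BORA (-0.56) with shCENPA2 and of SGO1 (-0.95) and SGO2 (-0.98) with shCENPA1 were lost, and AURKA was at -0.996 with median centring. BORA was not tested with a filter at 0. Over all genes, the 388 calls with shCENPA1 became 119 with 1 added to RPKM, 1044 by adjusted p alone and 252 to 427 without 1 library. The 897 calls with shCENPA2 became 529 with a filter at 0, 317 with 1 added, 2712 by adjusted p alone and 775 to 1074 without 1 library. The 107 calls between the CENPA shRNAs became 230 with lanes as replicates, 222 with a replicate block of run number, 53 with a filter at 0, 17 with 1 added, 208 by adjusted p alone and 22 to 224 without 1 library, and by adjusted p alone 1 of the 9 genes, TPX2, was called. The difference of INCENP between them ranged from -0.19 without shCENPA1 library 2 to 0.265 without shCENPA1 library 1, and was -0.04 without shCENPA2 library 1. The knockdown minus shNT difference in the log2 ratio of BORA to AURKA, -0.018 as reported, turned to 0.00093 with lane 7 only, 0.061 with 0.1 added, 0.38 with 1 added, and 0.0888 and 0.0900 without shNT library 2 and shCENPA2 library 2, in a range of -0.126 to 0.0900 without 1 library. The cause of these moves was not tested. INCENP lost its adjusted p with shCENPA1 without either shNT library or shCENPA1 library 2 (up to 0.0967) or a trend (0.0683) and with shCENPA2 without shCENPA2 library 2 (0.0600), and BORA with shCENPA1 did so without any one shNT or shCENPA1 library (up to 0.347), with lane 8 only (0.0566) and with a replicate block of library number (0.0621). Same-numbered libraries did not deviate together (correlations -0.06, -0.10 and -0.15), so no pairing by number was seen. With 2 libraries a group, a weak shared deviation could have been missed. The replicate block of library number left 6, 8 and 0 of the 9 genes called and 383, 891 and 95 of all genes, and crossing the shCENPA1 numbers, an alternative chosen after seeing the data, gave 105 calls between the CENPA shRNAs. With 2 libraries a group the spread is poorly known, and a lone library left in a group was assumed to vary like the others.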
